A study of Mus musculus with 12 samples.

Results

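A set of 10 genes of the thioredoxin system and the peroxiredoxin pathway were examined in mouse bone marrow-derived macrophages (BMDMs): Txn1, Txn2, Txnrd1, Txnrd2, Srxn1, Prdx1, Prdx2, Prdx3, Prdx5 and Prdx6. The members are fixed by name and no threshold on a measured value selects them, although the set was picked with earlier results of these data known. All 10 were present among the 48795 genes listed by Ensembl identifier, and all 10 were among the 11228 genes that passed the filter on low counts (CPM, counts scaled to library size, above 1.5 in at least 2 of the 12 libraries). BMDMs are macrophages grown in culture, here for 8 to 10 days with the growth factor M-CSF, from the bone marrow of mice that were 7 to 11 weeks old. WT mice are labelled C57BL/6 and Acod1-/- mice C57BL/6NJ-Acod1em1(IMPC)J/J, while the study's methods give C57BL/6NJ for both, and Acod1-/- mice carry a germline mutation of Acod1, the mitochondrial enzyme that makes itaconate, so every cell of the culture carries it. In each genotype, cells received vehicle, particulate matter (PM, an urban dust standard) at 20 μg/cm2 for 24 hours, or 4-octyl itaconate (OI, a form of itaconate that enters cells) at 0.25 mM for 2 hours ahead of the same PM treatment. Each of the 6 groups had 2 libraries, and no group analysed here received OI without PM, so the effect of OI is known only in cells with PM. The study asked whether itaconate made by the cell, or OI added to it, alters the response of macrophages to PM, including the antioxidant genes under NRF2.

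Thioredoxins carry electrons from NADPH to oxidized proteins, and thioredoxin reductases, which contain selenocysteine, return thioredoxin to its reduced form. Peroxiredoxins are abundant enzymes that reduce hydrogen peroxide and organic peroxides, most of them with electrons taken from thioredoxin, and sulfiredoxin repairs peroxiredoxins that peroxide itself has overoxidized. Several of these genes, among them Srxn1, Txnrd1 and Prdx1, are known targets of the transcription factor NRF2, which is held back by KEAP1 until electrophiles or oxidants modify KEAP1, and macrophages draw on the system when they make oxidants after taking up particles. In the cytosol, Txnrd1 (chr10:82833951-82897712, plus strand of GRCm38) reduces Txn1 (chr4:57943373-57956411, minus strand). In mitochondria, Txnrd2 (chr16:18426384-18479073, plus strand) reduces Txn2 (chr15:77915047-77929006, minus strand). Prdx1 (chr4:116685544-116700822, plus strand) and Prdx2 (chr8:84969587-84974834, plus strand) are mainly cytosolic peroxiredoxins, and Prdx3 (chr19:60864051-60874556, minus strand) is the mitochondrial one. Prdx5 (chr19:6906697-6910106, minus strand) is found in mitochondria, peroxisomes and cytosol. Prdx6 (chr1:161240112-161251219, minus strand) uses glutathione in place of thioredoxin and also has phospholipase activity. Srxn1 (chr2:152105516-152111376, plus strand) encodes sulfiredoxin.

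Promoter sequences were taken from RefSeq on GRCm38.p6 for the 3 genes that had the highest fold changes with OI among those with a window, and for Prdx5, which was raised by PM and not called higher with OI. Each window runs from 250 bases before an annotated start site to 50 bases after it, and 11 windows covered 9 of the 10 genes, with 3 for Txnrd1. Prdx6 had no window. The bases before the start site are shown 5′ to 3′ on the strand of the gene for Srxn1 (chr2:152105274-152105523), Prdx1 (chr4:116685349-116685598), the second Txnrd1 window (chr10:82858956-82859205) and Prdx5 (chr19:6910107-6910356, minus strand). The ends of the Srxn1 and Prdx1 windows reach into the gene models, whose annotated starts lie further upstream, and the Txnrd1 window shown lies wholly inside its gene model, ahead of an alternative start site. Capitals mark matches, on either strand, to TGACNNNGC, the core letters of the antioxidant response element to which NRF2 binds together with small MAF proteins, or to TGANTCA, the letters of the related AP-1 site, with the GC that follows it in TGANTCAGC.
Srxn1: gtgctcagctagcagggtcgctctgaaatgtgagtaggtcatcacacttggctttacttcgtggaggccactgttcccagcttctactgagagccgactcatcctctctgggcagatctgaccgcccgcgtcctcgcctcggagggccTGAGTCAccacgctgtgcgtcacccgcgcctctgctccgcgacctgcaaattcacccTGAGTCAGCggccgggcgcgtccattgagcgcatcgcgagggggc
Prdx1: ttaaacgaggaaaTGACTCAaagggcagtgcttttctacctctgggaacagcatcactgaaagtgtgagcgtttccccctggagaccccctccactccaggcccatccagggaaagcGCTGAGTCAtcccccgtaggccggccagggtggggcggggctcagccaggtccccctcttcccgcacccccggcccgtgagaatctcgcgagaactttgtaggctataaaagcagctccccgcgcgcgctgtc
Txnrd1: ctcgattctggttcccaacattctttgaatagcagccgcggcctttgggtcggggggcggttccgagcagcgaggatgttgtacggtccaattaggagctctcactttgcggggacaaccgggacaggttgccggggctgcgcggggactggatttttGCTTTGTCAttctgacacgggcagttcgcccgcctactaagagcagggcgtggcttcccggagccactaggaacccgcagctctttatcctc
Prdx5: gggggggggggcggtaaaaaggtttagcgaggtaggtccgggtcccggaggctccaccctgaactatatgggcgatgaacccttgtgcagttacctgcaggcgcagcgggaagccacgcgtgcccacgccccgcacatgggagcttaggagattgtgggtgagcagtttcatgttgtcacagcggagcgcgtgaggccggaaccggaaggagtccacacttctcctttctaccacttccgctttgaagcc

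The letters TGACNNNGC were found in 3 of the 11 windows and in 12.4% of all 32851 RefSeq windows of the same 300 bases. They lay at -133 to -125 from the start site in Prdx1, at -92 to -84 in the second Txnrd1 window, and at 29 to 37 past the start in Srxn1, which is outside the stretch shown. The letters TGANTCA were found in 2 of the 11 windows, those of Srxn1 (-102 to -96 and -45 to -39) and Prdx1 (-237 to -231 and -131 to -125), and in 7.81% of all windows. A search for TGANTCAGC, added after the sequences were seen, matched the same windows once each (Srxn1 at -45 to -37 and Prdx1 at -133 to -125) and 1.19% of all windows. This longer motif contains TGANTCA, and its Prdx1 match is the TGACNNNGC match as well. The Prdx5 window and those of Txn1, Txn2, Txnrd2, Prdx2 and Prdx3 held none of these letters. A match of letters in a window is a description and does not show that a factor binds there.

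Total counts per library ranged from 33616577 to 36817898 (median 34480636). Acod1 itself was read at 181 and 170 normalized CPM in the PM-treated WT libraries and at 108 and 94.1 in the PM-treated libraries labelled Acod1-/-, a log2 difference of -0.80 (SE 0.203, edgeR adjusted p = 0.0807). With vehicle it was at 1.84 and 2.49 normalized CPM in WT and at 1.26 and 1.22 in Acod1-/- libraries. With OI and PM it was at 32.6 and 57.1 in WT and at 24.4 and 26.8 in Acod1-/- libraries. Reads over Acod1 thus remained in the libraries labelled Acod1-/-, and a count over the whole gene does not show whether the mutated part was transcribed. Nnt, which regenerates NADPH in mitochondria and is disrupted in some C57BL/6 substrains, was at 37.4 and 37.7 normalized CPM in vehicle-treated WT libraries and at 72.4 and 74.3 in Acod1-/- libraries (log2 difference 0.97, SE 0.0579, adjusted p = 3.83e-05). The genotypes thus differed at Nnt although the methods give them the same C57BL/6NJ background, and the part of this difference in any genotype comparison was not tested. All 8 macrophage markers were detected, with summed levels between 14278 and 27338 normalized CPM, and most of this was Lyz2. Lyz2 itself was lower with OI, at 9776 and 11882 with OI and PM against 17692 and 21225 with PM in WT cells. In Acod1-/- cells Lyz2 was at 10161 and 10771 against 20787 and 18448. Most of the other members were lower with OI as well. Fcgr1 was at 27.8 and 28.3 with OI and PM against 105 and 108 with PM in WT cells. In Acod1-/- cells it was at 26.6 and 27.2 against 122 and 116. Adgre1, Csf1r, Itgam, Cd14 and Mertk were lower with OI too in both genotypes. Cd68 was higher in WT, at 1709 and 1859 against 1453 and 1634, and its groups overlapped in Acod1-/- cells. Their part in the results was not tested. A list of 8 neutrophil markers summed to 6.47 to 7.35 normalized CPM with vehicle, 13.1 to 20.2 with PM and 29.5 to 61.0 with OI and PM, and 3 of the 8 passed the filter. Most of that sum was S100a8, whereas the defining markers Mpo and Elane stayed at or below 0.191 normalized CPM in every library and Ly6g was at 0 in 11 of the 12. The sum was higher with OI through S100a8, not through the other detected members. With OI and PM, S100a9 lay between 0.419 and 1.05 normalized CPM, against 1.26 to 3.31 with PM, Ngp between 0.0338 and 0.721, against 0.914 to 2.56, and Ltf between 0.0299 and 0.541, against 0.714 to 1.78. The part of these genes in the results was not tested. Markers of dendritic, T, B and mast cells, fibroblasts and erythroid cells each summed to 4.04 normalized CPM or less.

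The 2 libraries of a group differed most in WT cells with OI and PM and with PM. For genes with at least 20 counts, the chi-square statistic between replicates, per degree of freedom, was 58.5 in WT with OI and PM, 27.3 in WT with PM and 8.32 in Acod1-/- with PM, against 2.61 to 4.16 in the other 3 groups, and a pair that differs by counting error alone is expected near 1. In WT with OI and PM, 9 of the 10 genes were lower in replicate 1 than in replicate 2, by a median of 0.44 on the log2 scale, and Txnrd1 was the exception. In WT with PM, 8 of the 10 were lower in replicate 1, with a median difference of -0.21. Over 11208 genes, not independent of each other, exonic length and the difference of replicate 1 from replicate 2 had a rank correlation (rho) of 0.61 in WT with OI and PM and 0.60 in WT with PM, so that short genes read higher in replicate 2. The direction was the opposite in Acod1-/- with PM, where rho was -0.36 and 9 of the 10 genes were higher in replicate 1, by a median of 0.11. Of the 10 genes, 8 have less exonic sequence than the median tested gene, 4479.5 bases, and the median of the 10 is 3046.5 bases. Values of the 10 genes after correction for gene length are given below wherever it changed a call or the side of a 2-fold change. Other genes were not examined under the alternatives. The correction takes out trends with length that go with treatment as well as those between replicates, and the 2 were not told apart. The labels do not say that the libraries of a group came from separate cultures or animals, so the p-values measure only the spread between these libraries.

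**Figure D1:**
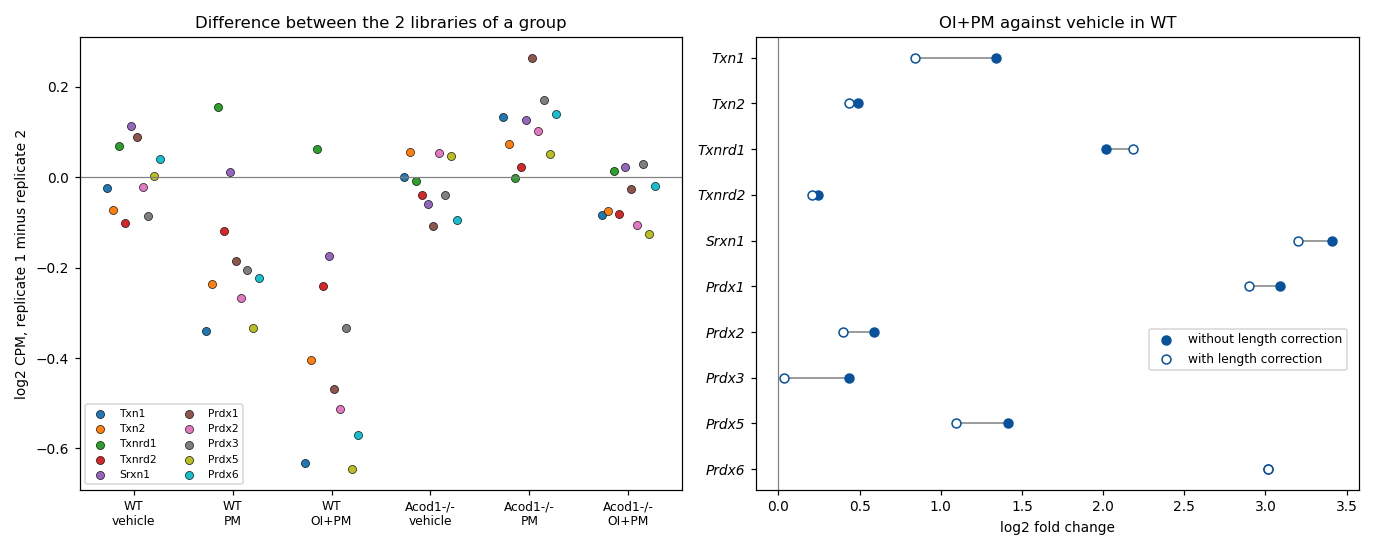
Left, difference in log2 normalized CPM between replicate 1 and replicate 2 for each of the 10 genes in each group; right, log2 fold change of OI and PM against vehicle in WT cells without and with a correction for gene length. In WT with OI and PM, 9 of the 10 points lie below 0, and the correction moves Prdx3 from 0.43 to 0.03 and Txn1 from 1.34 to 0.84, while Prdx6 stays at 3.01.

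Prdx1 was the most abundant of the 10 transcripts in every group. Per kilobase of exon, in normalized RPKM, its level in vehicle-treated WT cells was 855 ± 37.3 (SD, n = 2), followed by Txn1 at 228 ± 2.56, Prdx5 at 106 ± 0.0877, Srxn1 at 83.9 ± 4.69 and Txnrd1 at 62.2 ± 2.07. Prdx2 at 47.9 ± 0.494 and Prdx3 at 46.9 ± 1.97 overlapped. Txn2 at 21.9 ± 0.785, Prdx6 at 20.2 ± 0.406 and Txnrd2 at 4.39 ± 0.218 came last. The order was the same in vehicle-treated Acod1-/- cells, although there Txn2 (20.7 ± 0.563) and Prdx6 (19.9 ± 0.917) overlapped. Srxn1 moved from the fourth place with vehicle and with PM to the second with OI and PM in both genotypes, at 891 ± 76.4 normalized RPKM in WT and 576 ± 6.67 in Acod1-/- cells, above Txn1 at 577 ± 176 and 465 ± 19.3. Prdx6, which takes its electrons from glutathione, moved from the ninth place with vehicle to the sixth with OI and PM, at 163 ± 45.1 and 109 ± 1.06. Txnrd2 stayed the lowest in all 6 groups, between 4.14 and 5.21 normalized RPKM on average. Together the 10 genes took 0.413% to 0.452% of all counts with vehicle, 0.785% to 1.02% with PM and 2.24% to 2.91% with OI and PM, and Prdx1 alone made up 61.9% to 78.1% of these counts. In bulk RNA, fewer cells of a type and less RNA per cell cannot be told apart.

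**Figure D2:**
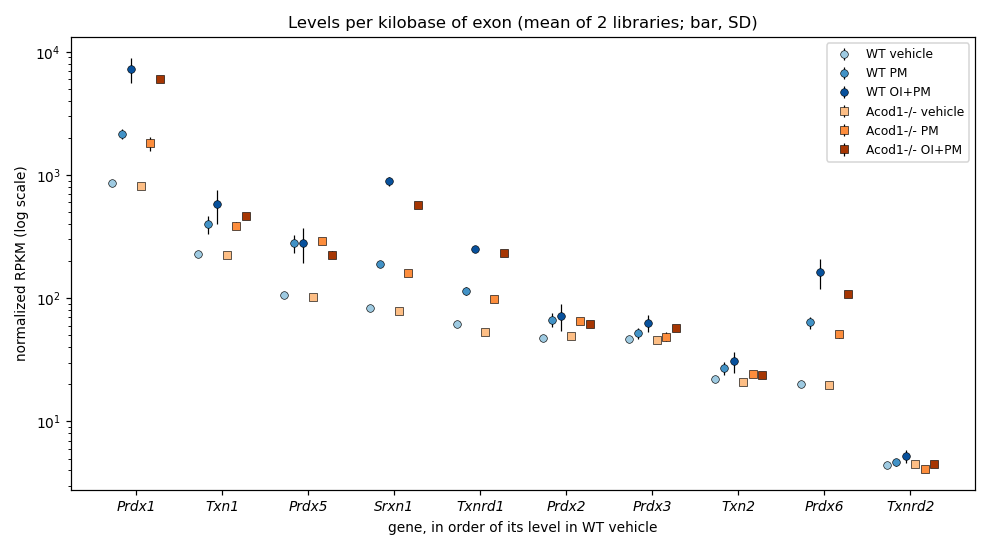
Mean normalized RPKM of each gene in the 6 groups on a log scale, with the SD of 2 libraries; genes are ordered by their level in vehicle-treated WT cells. Prdx1 lies highest throughout, at 855 with vehicle and 7287 with OI and PM in WT, and Txnrd2 lowest.

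PM raised most of the cytosolic genes of the pathway in both genotypes, whereas the mitochondrial Txn2, Txnrd2 and Prdx3 did not pass the test in either. In WT cells 7 of the 10 genes rose at an adjusted p of 0.05 or less and none fell, where 12.6% of all tested genes rose, and 4 of them (Srxn1, Prdx1, Prdx5 and Prdx6) also passed a change of 2-fold, as did 3.02% of all tested genes. Of the 10 genes in Acod1-/- cells, 6 rose and none fell, where 12% of all tested genes rose, and the same 4 passed 2-fold, against 3.19% of all tested genes. After the length correction Txnrd1 passed 2-fold in both genotypes (log2 fold changes of 1.01 in each), and Srxn1 no longer did in Acod1-/- cells (0.95). The comparisons of PM with vehicle use separate libraries in the 2 genotypes. The median log2 fold change of the 10 genes was 0.85 in each genotype.

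Prdx6 and Prdx5 had the highest fold changes with PM, although in WT Prdx5 came after Prdx1 with the length correction (1.21 against 1.23 on the log2 scale) and without PM replicate 2 (1.23 against 1.25). Prdx6 went from 98.4 and 95.6 normalized CPM with vehicle to 282 and 329 with PM in WT cells, that is by 1.66 on the log2 scale (SE 0.156, adjusted p = 5.11e-05). The Acod1-/- counterparts went from 92.6 and 98.8 to 257 and 234 (1.36, SE 0.155, adjusted p = 0.000158). Both PM-treated libraries lay above both vehicle-treated ones in each genotype. Prdx5, which protects mitochondria and peroxisomes, went from 227 and 226 normalized CPM to 530 and 667 in WT (log2 fold change 1.40, SE 0.177, adjusted p = 0.000344). Its level in Acod1-/- cells went from 221 and 214 to 630 and 608 (1.51, SE 0.177, adjusted p = 0.000192). The groups did not overlap. Prdx5 counts are uncertain to the extent that exons of Trmt112 on the other strand overlap its own by 409 bases, because the handling of strand is not given.

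Prdx1, already the most abundant, went from 2683 and 2523 normalized CPM to 6187 and 7030 in WT cells, up by 1.34 on the log2 scale (SE 0.143, adjusted p = 0.000114). For Acod1-/- cells the values went from 2397 and 2582 to 6018 and 5010 (1.15, SE 0.142, adjusted p = 0.000279). The groups were apart in both genotypes. Of the 50-base stretches of Prdx1 transcripts, 8.81% also occur in other annotated genes, among them Gm21399 and Gm7204, so part of its reads could have been counted there or left out. Srxn1, the repair enzyme, went from 246 and 227 normalized CPM to 536 and 532 in WT (1.17, SE 0.0739, adjusted p = 3.34e-06). Acod1-/- libraries went from 216 and 225 to 473 and 433 (1.04, SE 0.0738, adjusted p = 6.12e-06). Here too every PM-treated library was above every vehicle-treated one, and no 50-base stretch of Srxn1 is shared with another gene.

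The cytosolic reductase and its substrate rose by less than 2-fold in the fit without the length correction. Txnrd1 went from 451 and 430 normalized CPM to 861 and 772 in WT (log2 fold change 0.89, SE 0.0615, adjusted p = 6.34e-06). The Acod1-/- counterparts went from 374 and 376 to 703 and 704 (0.91, SE 0.0616, adjusted p = 4.76e-06). The groups did not overlap. Txn1 went from 238 and 242 to 371 and 470 in WT (0.81, SE 0.173, adjusted p = 0.00844). Its level in Acod1-/- cells went from 236 and 236 to 428 and 390 (0.80, SE 0.174, adjusted p = 0.00838). The call for Txn1 was lost in WT without either vehicle library or without PM replicate 2 (adjusted p = 0.0655, 0.0563 and 0.07), and in Acod1-/- cells without either vehicle library or without PM replicate 1 (0.0579, 0.0576 and 0.0662). After the length correction its log2 fold change in WT was 0.52 in place of 0.81, while that of Txnrd1 was 1.01 in each genotype.

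Among the other members, Prdx2 passed the test in WT cells only just. It went from 145 and 147 normalized CPM to 185 and 222 (log2 fold change 0.48, SE 0.145, adjusted p = 0.0385), and in Acod1-/- cells from 153 and 148 to 205 and 192 (0.40, SE 0.145, adjusted p = 0.0738). The groups were apart in both genotypes. The WT call stood in 3 of 12 fits that left out a library, those without PM replicate 1 or without either OI and PM library of WT, and in the others the adjusted p ranged from 0.0589 to 0.255. Prdx2 counts are uncertain, since its exons overlap those of Junb and Rnaseh2a on the other strand and 12% of its 50-base stretches occur elsewhere, among others in Tdpx-ps1. The mitochondrial genes gave smaller values. Txn2 differed by 0.30 (SE 0.122, adjusted p = 0.0938) in WT and 0.22 (SE 0.123, adjusted p = 0.219) in Acod1-/- cells, and its PM-treated libraries lay above the vehicle-treated ones. Prdx3 had 0.15 (95% interval -0.10 to 0.41) in WT and 0.08 (-0.18 to 0.33) in Acod1-/- cells, and -0.09 and -0.11 after the length correction. Txnrd2 had 0.08 (-0.13 to 0.29) and -0.13 (-0.34 to 0.08). Without a filter Txn2 was called in WT (0.29, adjusted p = 0.0237), as it was with the length correction and a replicate block together (0.27, adjusted p = 0.0449). Txn2 was called in WT in 3 of the fits that left out a library, those without PM replicate 1 (adjusted p = 0.0448) or without OI and PM replicate 1 or 2 (0.00883 and 0.00891). Without either of these OI and PM libraries of WT, Txn2 (adjusted p = 0.0417 and 0.0419) and Prdx2 (0.00303 and 0.00306) were also called in Acod1-/- cells, and Prdx2 was called there by DESeq2 (0.0376), without a filter (0.000303) and after the length correction (0.32, adjusted p = 0.0281) as well. A fit on the compared groups alone called Txn2 (0.0044) and Prdx2 (0.0001) in Acod1-/- cells, where 25.6% of all tested genes then rose. With a replicate term in the WT libraries alone, added after seeing the data because same-numbered WT libraries deviated together, Txn2 was called in both genotypes (0.30 and 0.22, adjusted p = 0.00694 and 0.0338) and Prdx2 in Acod1-/- cells (adjusted p = 0.0053).

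**Figure D3:**
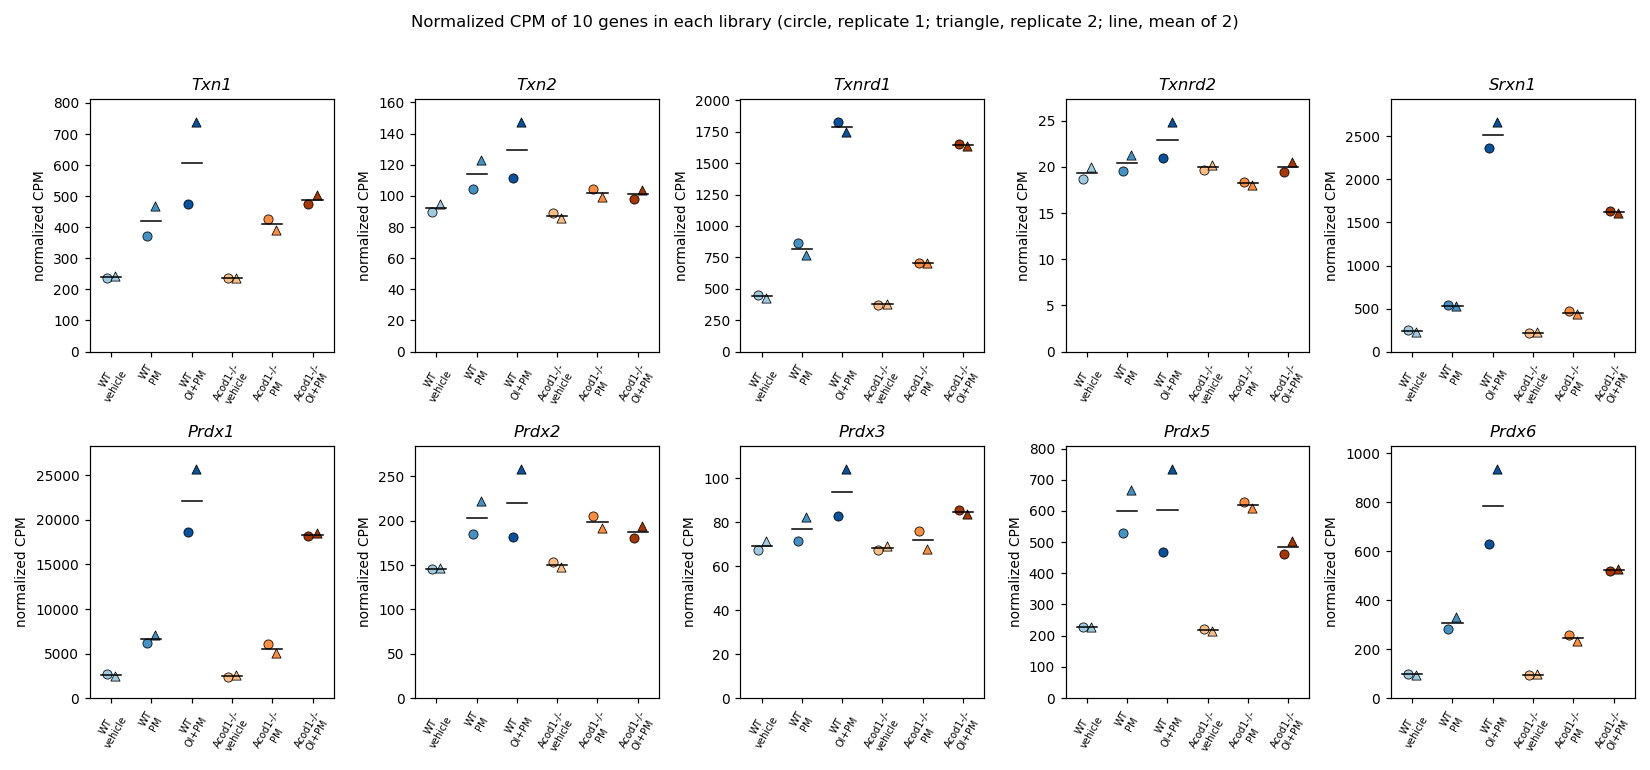
Normalized CPM of each gene in all 12 libraries, with axes that start at 0; circles are replicate 1, triangles replicate 2 and lines the mean of 2. Prdx1, Srxn1, Txnrd1 and Prdx6 rise in steps from vehicle to PM to OI and PM in both genotypes, whereas Prdx5 is high with PM and no higher on average with OI and PM in Acod1-/- cells.

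OI added before PM raised the repair enzyme Srxn1, the peroxiredoxins Prdx1 and Prdx6 and the reductase Txnrd1 in both genotypes, by 2.13-fold to 4.71-fold over PM alone. In WT cells 5 of the 10 genes rose against PM alone (Srxn1, Prdx1, Prdx6, Txnrd1 and Txn1), where 21.3% of all tested genes rose, and the first 4 passed 2-fold, as did 2.3% of all tested genes. Those 4 rose in Acod1-/- cells, where 13.9% of all tested genes rose, and all 4 passed 2-fold, against 1.85% of all tested genes. No member fell in either genotype. The PM-treated libraries serve here as the reference and were the treated side in the comparisons of PM with vehicle, so the values of these comparisons are not independent of each other.

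Srxn1 moved most. It went from 536 and 532 normalized CPM with PM to 2360 and 2664 with OI and PM in WT cells, which is 2.23 on the log2 scale (SE 0.076, adjusted p = 1.36e-08) and the 24th highest value among the 11228 genes. For Acod1-/- cells the values went from 473 and 433 to 1639 and 1612 (1.84, SE 0.0751, adjusted p = 3.99e-08). Each library with OI and PM had at least 1612 normalized CPM, and none with PM alone had more than 536. Prdx1 went from 6187 and 7030 to 18600 and 25747 in WT (1.75, SE 0.144, adjusted p = 6.05e-06). Acod1-/- libraries went from 6018 and 5010 to 18185 and 18507 (1.73, SE 0.144, adjusted p = 6.86e-06). The groups lay far apart in both genotypes, although the WT libraries with OI and PM differed from each other by more than any other pair.

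Txnrd1 went from 861 and 772 normalized CPM to 1825 and 1746 in WT cells (log2 fold change 1.13, SE 0.0617, adjusted p = 2.93e-07). The Acod1-/- counterparts went from 703 and 704 to 1652 and 1637 (1.22, SE 0.0618, adjusted p = 1.65e-07). The replicates of Txnrd1 lay close together, and the groups did not overlap. Prdx6 went from 282 and 329 to 630 and 937 in WT (1.36, SE 0.154, adjusted p = 6.26e-05). Its level in Acod1-/- cells went from 257 and 234 to 519 and 527 (1.09, SE 0.153, adjusted p = 0.000307). These 4 genes were called in both genotypes under every alternative tried.

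Txn1, the substrate of Txnrd1, gave smaller and less certain values. It went from 371 and 470 normalized CPM to 476 and 738 in WT cells (log2 fold change 0.53, SE 0.173, adjusted p = 0.0315), the lower library with OI and PM standing just above the higher one with PM. For Acod1-/- cells the values went from 428 and 390 to 475 and 503 (0.26, SE 0.172, adjusted p = 0.29). The WT call was lost without PM replicate 1 (0.36, adjusted p = 0.193) and without OI and PM replicate 2 (0.18, adjusted p = 0.231), in a fit on the compared groups alone (0.50, adjusted p = 0.205) and with total count scaling (0.39, adjusted p = 0.0632), and the length correction lowered the log2 fold change to 0.33 and the adjusted p to 0.000718. In Acod1-/- cells Txn1 was called after the correction (0.24, adjusted p = 0.00572) and without a filter (0.28, adjusted p = 0.00517). Within each replicate number of WT, Txn1 went from 371 to 476 and from 470 to 738 normalized CPM. With the replicate term in the WT libraries, added after seeing the data, it was called in WT (0.51, adjusted p = 0.00145). That fit did not call it in Acod1-/- cells (0.26, adjusted p = 0.0647).

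Prdx5, which was among the members furthest raised by PM, was not called higher after OI. Its libraries were at 530 and 667 normalized CPM with PM and at 470 and 735 with OI and PM in WT cells, a log2 fold change of 0.01 (95% interval -0.38 to 0.40). In Acod1-/- cells they were at 630 and 608 and at 462 and 504, with a change of -0.36 (-0.74 to 0.03, adjusted p = 0.146). The groups overlapped in WT and not in Acod1-/- cells. Without a filter Prdx5 was called lower in Acod1-/- cells (-0.34, adjusted p = 0.000259). The WT value depended on the 2 libraries with OI and PM, as it was 0.30 without replicate 1 and -0.35 without replicate 2. Those fits set a library against PM libraries of both numbers. Within each replicate number of WT, Prdx5 went from 530 to 470 and from 667 to 735 normalized CPM. With the replicate term in the WT libraries its WT value was -0.01 (adjusted p = 0.959). In Acod1-/- cells the difference was called as lower without either OI and PM library of WT (adjusted p = 0.00696 and 0.00703) and after the length correction (-0.38, adjusted p = 0.00868).

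The remaining members did not pass the test with OI. Prdx2 had a log2 fold change of 0.11 (-0.21 to 0.43) in WT and -0.08 (-0.40 to 0.24) in Acod1-/- cells, Txn2 had 0.18 (-0.09 to 0.46) and -0.01 (-0.29 to 0.26), and Txnrd2 had 0.16 (-0.05 to 0.37) and 0.13 (-0.08 to 0.34). Prdx3 had 0.28 (0.03 to 0.53, adjusted p = 0.0697) in WT and 0.23 (-0.02 to 0.49, adjusted p = 0.141) in Acod1-/- cells, and its groups did not overlap in either genotype. DESeq2 called Prdx3 in WT (adjusted p = 0.0472), as did edgeR without a filter (0.28, adjusted p = 0.0343). Without PM replicate 2 its WT value was 0.38. The length correction lowered the WT value to 0.12 (adjusted p = 0.0898) and that of Prdx2 to 0.04. In Acod1-/- cells the correction gave Prdx3 0.22 and called it (adjusted p = 0.00893). The counts depended on the WT libraries with OI and PM. Without replicate 1 of them all 10 genes were called higher in WT, where 31.5% of all tested genes then were, with 0.35 for Prdx2 and 0.37 for Txn2, and without replicate 2 these were -0.17 and -0.03. Such fits set a library against PM libraries of both numbers. Within each replicate number of WT, Txn2 went from 105 to 111 and from 123 to 147 normalized CPM and Txnrd2 from 19.6 to 21.0 and from 21.3 to 24.8, higher with OI in both, whereas Prdx2 went from 185 to 181 and from 222 to 259. With the replicate term in the WT libraries, Prdx3 was called in WT (0.27, adjusted p = 0.00733) and in Acod1-/- cells (0.23, adjusted p = 0.021), Prdx5 was called lower in Acod1-/- cells (adjusted p = 0.0185), and Txn2 (0.18, adjusted p = 0.0593) and Txnrd2 (0.16, adjusted p = 0.0751) were not called in WT. Without either replicate 7 were called in Acod1-/- cells, where 19.9% of all tested genes were then higher and 24.9% lower, of which Prdx5 was lower and Txn1 and Prdx3 were the added higher ones (adjusted p = 0.0392 to 0.0394 and 0.0319). A fit on the compared groups alone and the length correction also gave 7 in Acod1-/- cells, 6 of them higher, where 24.3% and 19% of all tested genes were higher and 27.3% and 24.8% lower.

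Against vehicle, the combination of OI and PM raised 10 of 10 genes in WT cells, where 33.6% of all tested genes rose, and 7 of 10 in Acod1-/- cells, where 22.7% rose. In both genotypes 6 of them (Srxn1, Prdx1, Prdx6, Txnrd1, Prdx5 and Txn1) passed 2-fold, as did 5.38% and 3.88% of all tested genes. Srxn1 rose 10.6-fold in WT (log2 fold change 3.41, SE 0.0799) and 7.38-fold in Acod1-/- cells (2.88, SE 0.0782). Prdx1 rose 8.52-fold and 7.37-fold, Prdx6 8.08-fold and 5.47-fold, and Txnrd1 4.05-fold and 4.38-fold. Prdx5 rose 2.66-fold and 2.22-fold, and Txn1 2.53-fold and 2.08-fold. After the length correction Txn1 fell short of 2-fold, with log2 fold changes of 0.84 and 0.81. The summed level of the 10 genes was 4264 and 4077 normalized CPM in WT with vehicle, 9147 and 10250 with PM, and 24757 and 33103 with OI and PM. The Acod1-/- sums were 3865 and 4054, then 8914 and 7756, then 23316 and 23693. These sums follow Prdx1, which makes up most of them.

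The 4 members that did not reach 2-fold included all of the strictly mitochondrial ones. Prdx2 changed by 0.59 on the log2 scale (adjusted p = 0.00538) in WT, and its value was 0.32 (adjusted p = 0.094) in Acod1-/- cells. Txn2, the mitochondrial thioredoxin, had 0.49 (adjusted p = 0.00607) and 0.21 (adjusted p = 0.182), and Prdx3 had 0.43 (adjusted p = 0.00733) and 0.31 (adjusted p = 0.0437). Txnrd2 had 0.24 (adjusted p = 0.0412) in WT and 0.00 (95% interval -0.21 to 0.21) in Acod1-/- cells. In WT, a fit on the compared groups alone called 7 of the 10 genes, where 21.8% of all tested genes rose, and lost Txn2 (adjusted p = 0.0519), Prdx3 (0.0557) and Txnrd2 (0.195), and total count scaling lost the same 3 (0.0505, 0.0835 and 0.84). Total count scaling also lost Prdx3 in Acod1-/- cells (0.184), as did a filter in all libraries (0.0565). The call for Prdx3 was lost after the length correction in both genotypes, at 0.03 (adjusted p = 0.627) in WT and 0.11 (adjusted p = 0.12) in Acod1-/- cells, and in WT without vehicle replicate 1 (adjusted p = 0.0555). The Acod1-/- call stood in 4 of 12 fits without a library, those without PM replicate 1 or 2 or OI and PM replicate 1 or 2 of WT, and the adjusted p in the others ranged from 0.052 to 0.154. The call for Txnrd2 in WT stood in 3 of 12 such fits, those without PM replicate 1 or 2 or OI and PM replicate 1, with an adjusted p of 0.0568 or more in the others, and DESeq2 gave 0.053 and the 3 other filters 0.0529 to 0.136. Without either OI and PM library of WT, Txn2 (adjusted p = 0.0354 and 0.0355) and Prdx2 (0.00585 and 0.0059) were called in Acod1-/- cells as well, as they were with the replicate term in the WT libraries (0.0288 and 0.0107) and in a fit on the compared groups alone (2.13e-05 and 1.3e-08), where 38% of all tested genes rose. Without a filter Prdx2 was called there too (0.00182).

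**Figure D4:**
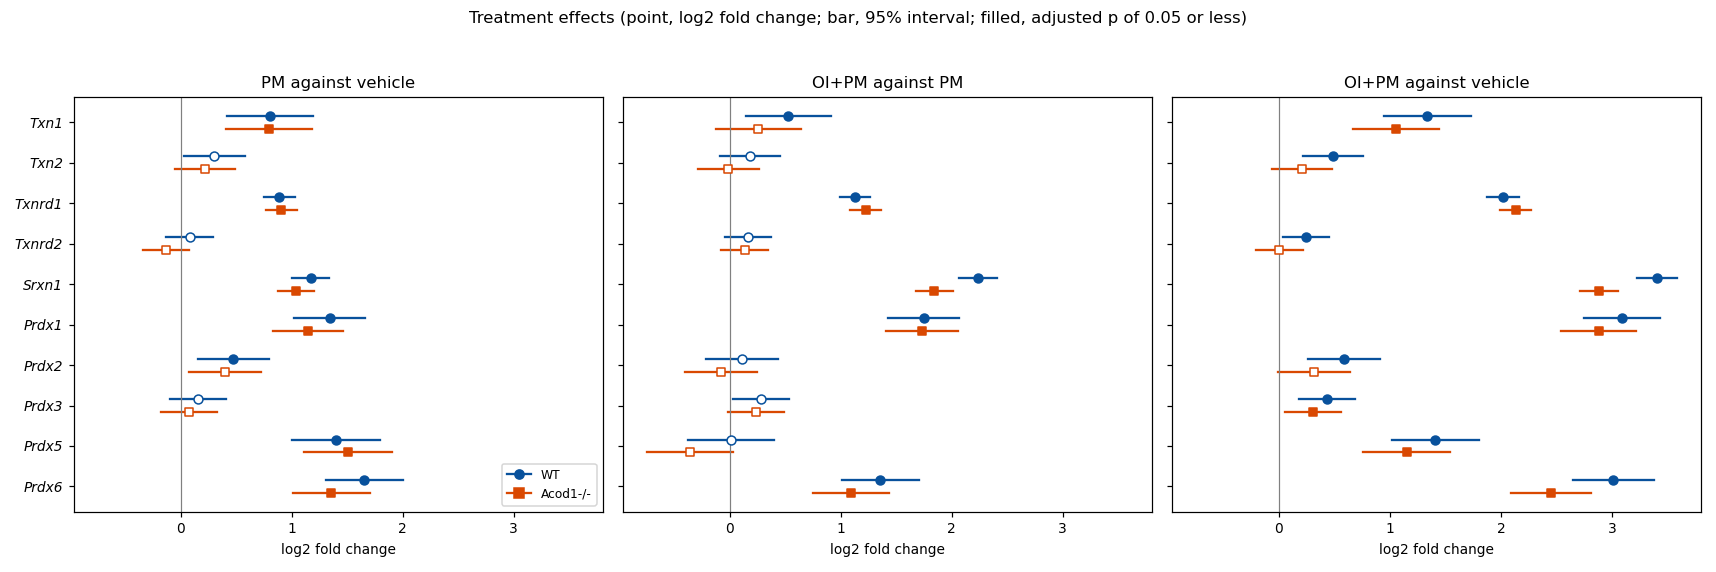
Log2 fold change of each gene with its 95% interval for PM against vehicle, OI and PM against PM, and OI and PM against vehicle, in WT (circles) and Acod1-/- cells (squares); filled symbols have an adjusted p of 0.05 or less. Srxn1 lies furthest to the right for OI and PM against vehicle in WT, at 3.41. In Acod1-/- cells Srxn1 and Prdx1 lie level at 2.88, and after the length correction Prdx1 was at 2.79 and Srxn1 at 2.77. Prdx5 lies at 0.01 in WT and -0.36 in Acod1-/- cells for OI and PM against PM.

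In the main fit no member passed the test between Acod1-/- and WT cells with vehicle or with PM. With vehicle, 0 of 10 genes were called by edgeR, where 1.83% of all tested genes were. Txnrd1 alone had an unadjusted p under 0.05 (0.00364, rank 332 among the 11228 tested genes). With PM, 0 of 10 were called, where 2.4% of all tested genes were. Txnrd1 and Srxn1 had an unadjusted p under 0.05 (0.00569 and 0.00926, ranks 541 and 672), and Prdx6, at 0.0638, had rank 1802. DESeq2 called 0 in both. A fit on the compared groups alone called Txnrd1 (-0.24, adjusted p = 8.61e-07) and Srxn1 (-0.11, adjusted p = 0.0221) lower with vehicle. Without a filter Prdx1 (-0.25, adjusted p = 1.69e-05) and Prdx6 (-0.31, adjusted p = 0.0131) were called lower with PM. The shares of all tested genes in these fits are given below. With vehicle the log2 difference of Acod1-/- from WT lay between -0.23 and 0.05 for the 10 genes, and with PM between -0.32 and 0.05.

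Txnrd1 had the smallest p in both comparisons. Its libraries were at 451 and 430 normalized CPM in WT and at 374 and 376 in Acod1-/- cells with vehicle, a log2 difference of -0.23 (95% interval -0.37 to -0.10, adjusted p = 0.123). With PM they were at 861 and 772 and at 703 and 704, a log2 difference of -0.22 (-0.35 to -0.08, adjusted p = 0.118). Both Acod1-/- libraries lay below both WT libraries in each case. The length correction called it lower with vehicle (-0.25, adjusted p = 0.0177) and with PM (-0.24, adjusted p = 0.014), and it was also called without either OI and PM library of WT (adjusted p = 0.0482 and 0.0481 with vehicle, 0.046 and 0.0459 with PM). The replicate term in the WT libraries called it too (-0.23 with vehicle, adjusted p = 0.0177, and -0.21 with PM, adjusted p = 0.0201), in a test that takes the shift between WT replicate numbers out of the spread. Without either of them Srxn1 (-0.24, adjusted p = 0.0361 in both fits) and Prdx6 (-0.32, adjusted p = 0.0318 and 0.0321) were called lower with PM too. For Prdx1 with PM the interval of the log2 difference ran from -0.57 to 0.05, and for Txn1 from -0.42 to 0.34.

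With OI and PM, Srxn1 and Prdx6 were lower in Acod1-/- than in WT cells, and 4.45% of all tested genes were lower. Srxn1 was at 2360 and 2664 normalized CPM in WT and at 1639 and 1612 in Acod1-/- cells, a log2 difference of -0.63 (SE 0.0729, adjusted p = 0.0017), and all libraries of a genotype lay on their own side. Prdx6 was at 630 and 937 and at 519 and 527, a log2 difference of -0.58 (SE 0.152, adjusted p = 0.0491). All 10 genes had a lower mean in Acod1-/- cells, with log2 differences from -0.63 to -0.12, and for 6 of them the groups did not overlap, as for 29.1% of all tested genes in this direction. Neither change reached 2-fold. After the length correction Srxn1 (-0.52) and Prdx6 (-0.58) were still called lower, Txnrd1 was called as well (-0.19, adjusted p = 0.0238), where 8.43% of all tested genes were then lower, Txn1 went from -0.31 to -0.06, and Prdx3 went from -0.15 to 0.05. With the replicate term in the WT libraries, Txn2 was called in addition to Srxn1 and Prdx6 (-0.35, adjusted p = 0.00731). That fit also called a larger share of all tested genes lower than the main fit, as given below. The length correction took Prdx5 from -0.32 to -0.15, Prdx2 from -0.23 to -0.13 and Prdx1 from -0.27 to -0.17.

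This comparison leaned on the WT libraries with OI and PM. Without replicate 1, 9 of the 10 genes were called lower, Txnrd1 being the exception, where 28.3% of all tested genes then were, and without replicate 2 only Srxn1 was, where 2.2% were. Without replicate 2 the log2 differences of Txn1, Prdx2, Prdx3 and Prdx5 were 0.04, 0.05, 0.03 and 0.04, no longer below 0, and that of Prdx1 was -0.02. Srxn1 was called in all 12 fits without a library, at -0.71 to -0.54 (adjusted p from 0.000187 to 0.0317). The call for Prdx6 was lost without WT OI and PM replicate 2 (-0.27, adjusted p = 0.14), without either Acod1-/- library with OI and PM (adjusted p = 0.243 and 0.213), and without any 1 of the 4 vehicle libraries or either PM library of Acod1-/- cells (adjusted p from 0.0766 to 0.0859). It stood in the 3 fits without PM replicate 1 or 2 or OI and PM replicate 1 of WT. A fit on the compared groups alone called neither gene, with adjusted p = 0.195 for Srxn1 and 0.39 for Prdx6, and called no tested gene lower. Its log2 differences were -0.60 for Srxn1 and -0.56 for Prdx6, where the main fit gave -0.63 and -0.58. A filter in all libraries lost Prdx6 (-0.57, adjusted p = 0.0542). S100a8, which made up most of the neutrophil list, was at 28.8 and 60.5 normalized CPM in these WT libraries and at 31.6 and 32.6 in the Acod1-/- ones. Other members of that list were lower in these WT libraries, S100a9 at 0.419 and 0.474 against 1.02 and 1.05, Ngp at 0.18 and 0.0338 against 0.721 and 0.4, and Ltf at 0.0299 and 0.0338 against 0.541 and 0.277. Their part in the result was not tested.

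**Figure D5:**
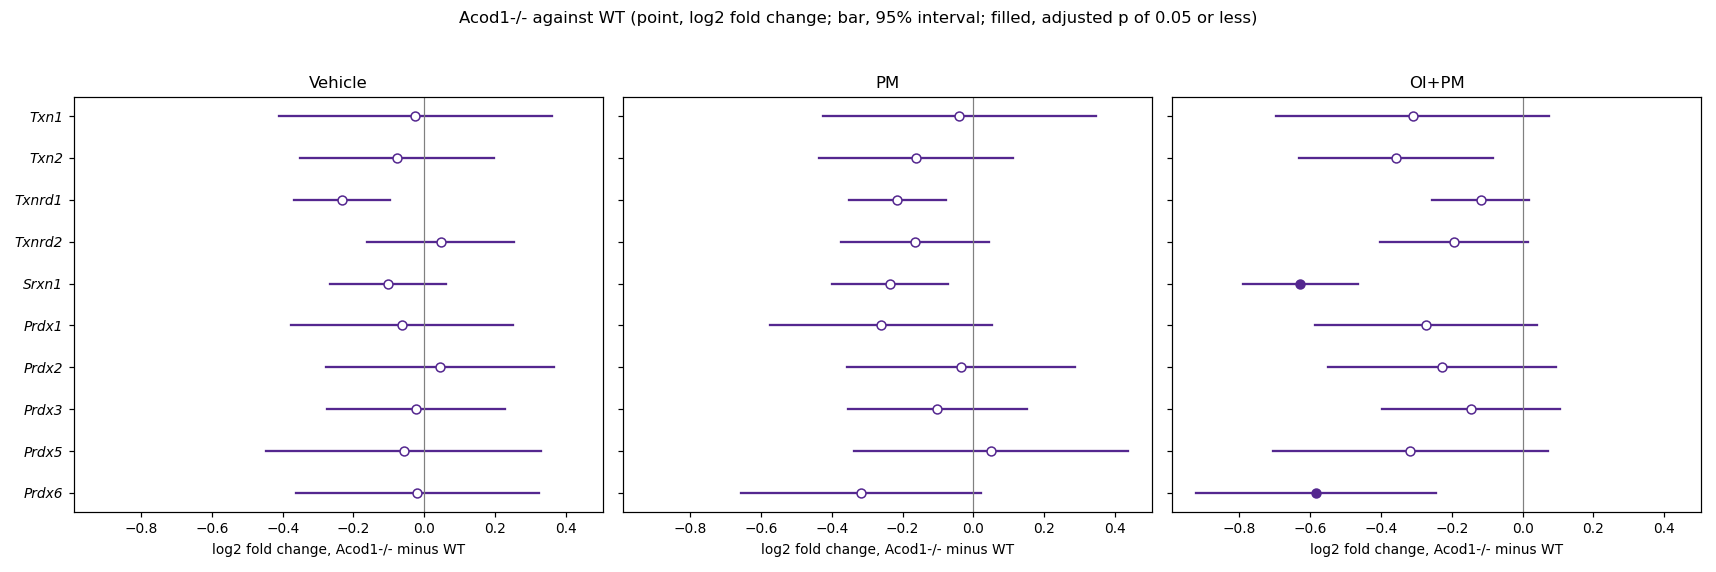
Log2 difference of Acod1-/- from WT cells with its 95% interval for each gene with vehicle, with PM, and with OI and PM; filled points have an adjusted p of 0.05 or less. Only Srxn1 (-0.63) and Prdx6 (-0.58) with OI and PM are filled.

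The effects of PM and of OI were then compared between genotypes by interaction terms. No gene was called for either interaction, 0 of 10 members and 0% of all tested genes, by edgeR, and DESeq2 called 0 of the 10 as well. For PM, 0 members had an unadjusted p under 0.05. For OI, Srxn1 alone had (0.00355, rank 78 among the 11228 tested genes). Its OI effect in Acod1-/- minus that in WT cells was -0.39 on the log2 scale (95% interval -0.62 to -0.16, adjusted p = 0.511). For Prdx1 the difference of the OI effects was -0.01 (-0.46 to 0.43) and for Txnrd1 it was 0.10 (-0.10 to 0.29). Without WT OI and PM replicate 1, Srxn1 (-0.48, adjusted p = 0.0327), Prdx5 (-0.65, adjusted p = 0.0399) and Prdx6 (-0.52, adjusted p = 0.0419) were called, as were 3.27% of all tested genes in this direction. The intervals for Txn1 (-0.82 to 0.27) and Prdx5 (-0.91 to 0.18) leave differences of more than 1.5-fold possible.

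The genes that act around the 10 members were counted from lists. Of 16 relatives of the thioredoxin system, 2 rose and 3 fell with PM in WT cells, where 12.6% of all tested genes rose and 12.2% fell. With OI 7 rose and 3 fell, where 21.3% rose and 22.6% fell, and only Nxn rose by 2-fold. Nxn, a nucleoredoxin of the thioredoxin family, rose with OI by 1.74 (SE 0.131, adjusted p = 3e-06) in WT and 1.42 (SE 0.138, adjusted p = 2.14e-05) in Acod1-/- cells. Glrx, the cytosolic glutaredoxin that works with glutathione, rose with PM by 0.46 (SE 0.0923, adjusted p = 0.00582) and fell by 1.12 with OI (adjusted p = 6.92e-06) in WT cells, and Sesn1, a sestrin, fell by 0.60 with PM and fell by 1.52 with OI. Of the relatives in Acod1-/- cells, 1 rose and 2 fell with PM, where 12% of all tested genes rose and 11.9% fell, and 4 rose and 4 fell with OI, where 13.9% rose and 20.6% fell.

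Prdx4, the peroxiredoxin of the endoplasmic reticulum, was lower with OI in both genotypes. It was at 114 and 117 normalized CPM with vehicle, 120 and 148 with PM and 74.7 and 108 with OI and PM in WT cells. In Acod1-/- cells it was at 109 and 113, then 127 and 116, then 70.1 and 74.8. With PM its log2 fold change was 0.22 (adjusted p = 0.299) in WT and 0.13 (adjusted p = 0.535) in Acod1-/- cells, and with OI it fell by 0.55 (adjusted p = 0.0149) and by 0.75 (adjusted p = 0.00358). Txnip, which binds and inhibits thioredoxin, fell by 0.23 with PM (adjusted p = 0.0213) and rose by 0.21 with OI (adjusted p = 0.0193) in WT cells. In Acod1-/- cells its change with PM was -0.13 (adjusted p = 0.143), and it fell by 0.26 with OI (adjusted p = 0.00751). It was higher in Acod1-/- than in WT cells with vehicle (0.30, adjusted p = 0.0415) and with PM (0.40, adjusted p = 0.00834). With OI and PM the genotypes overlapped, at 995 and 896 normalized CPM in WT and at 885 and 913 in Acod1-/- cells.

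A list of 7 tested genes held enzymes that draw electrons from thioredoxin and Map3k5, a kinase that thioredoxin binds and holds inactive. Of these 7, 4 fell and 0 rose with OI in each genotype, where 22.6% of all tested genes fell in WT and 20.6% in Acod1-/- cells. Map3k5 itself had log2 fold changes of -0.01 (adjusted p = 0.959) and 0.14 (adjusted p = 0.318). Rrm2 and Rrm1, which encode subunits of ribonucleotide reductase, fell, with log2 fold changes of -4.27 and -2.55 in WT cells and of -4.41 and -2.27 in Acod1-/- cells. Rrm2b, the other small subunit, had -0.02 (adjusted p = 0.914) and 0.15 (adjusted p = 0.461). The methionine sulfoxide reductases Msrb2 and Msra fell as well, with -0.61 and -0.38 in WT and -0.57 and -0.41 in Acod1-/- cells. With PM, 1 of the 7 rose and 1 fell in WT, where 12.6% of all tested genes rose and 12.2% fell. In Acod1-/- cells 1 rose and 2 fell, where 12% rose and 11.9% fell. Msrb1, which contains selenocysteine as the thioredoxin reductases do, rose by 1.19 (SE 0.167, adjusted p = 0.000675) in WT and by 1.24 (SE 0.167, adjusted p = 0.000485) in Acod1-/- cells. Rrm1 had -0.29 (adjusted p = 0.0109) in WT and -0.33 (adjusted p = 0.00453) in Acod1-/- cells, where Rrm2 had -0.36 (adjusted p = 0.00837).

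Among 6 regulators, Maff, Nfe2l2 and Keap1 rose with PM in each genotype, where 12.6% of all tested genes rose in WT and 12% in Acod1-/- cells. Nfe2l2, which encodes NRF2, rose by 0.49 with PM (SE 0.0586, adjusted p = 0.000257) and fell by 0.22 with OI (SE 0.0585, adjusted p = 0.0131) in WT cells, and its level was 296 and 301 normalized CPM with vehicle, 415 and 420 with PM and 347 and 371 with OI and PM. Keap1 rose by 0.32 with PM (adjusted p = 0.00457). The small MAF genes Maff, Mafg and Mafk, whose products pair with NRF2, rose with OI in WT by 1.20, 0.78 and 0.59 and in Acod1-/- cells by 0.75, 0.75 and 0.45, where 21.3% and 13.9% of all tested genes rose. RNA levels of Nfe2l2 and Keap1 say nothing of the amount of their proteins.

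The 10 genes also differed in how alike their patterns were over the 12 libraries. Pearson's r of log2 CPM was 0.99 for Srxn1 with Prdx1, for Txnrd1 with Prdx1 and for Txnrd1 with Srxn1, and 0.98 for Prdx1 with Prdx6, whereas Txnrd2 with Prdx5 gave 0.29 and Txnrd2 with Txnrd1 gave 0.47. These values describe the same 12 libraries in 6 groups, and the points share treatment and depth.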

How the data were processed

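RNA of 12 libraries (6 groups of 2, single-end reads of 50 bp) had been quantified by the authors with FastQC 0.11.5, STAR 2.5.3a, Picard 2.9.0 and featureCounts on GRCm38, per the labels. The annotation release and the handling of strand are not given in the sources used here. The deposited values are raw counts of reads per gene, and totals per library ran from 33616577 to 36817898. Replicates differed with a chi-square per degree of freedom of 2.61 to 58.5, where counting error alone gives about 1. No deposited column was set aside (0 of them).

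The members and gene lists were chosen with earlier results of these data known. Genes with a CPM above 1.5 in at least 2 libraries (11228) were fitted with edgeR 4.0.16 (R 4.3.3) as 6 group means over all 12 libraries, with TMM scaling and the quasi-likelihood test. P-values were adjusted by Benjamini and Hochberg over all tested genes in each of 11 comparisons, and a gene was called at an adjusted p of 0.05 or less. Standard errors are the log2 fold change divided by the root of F, and intervals are 95% with these errors. Normalized CPM use TMM library sizes, and RPKM divide them by exonic length. On counts simulated for PM against vehicle in WT over 11228 genes, 94% of genes changed 2-fold and 68% of those changed 1.5-fold upward were recovered.

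Alternatives were DESeq2 1.42.0, RLE and total count scaling, 3 other filters, fits restricted to the groups compared and stricter thresholds. Others were leaving out each library, a replicate block (also, added after seeing the data, in WT libraries alone) and a length offset. The offset was a lowess curve (span 0.3) of each library's log2 deviation from the gene means over all libraries, on log2 exonic length. It therefore also takes out any trend with length that goes with treatment. Genes named beside the members were up to 4 called genes per list with the largest change in a comparison, plus Prdx4 and Txnip; genes alike in pattern were the 3 with the highest r among 9558 genes with a mean CPM of 5 or more, and those of Txnrd1 are not reported here. Figures were drawn with matplotlib 3.10.9.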

Additional observations from a re-analysis of the deposited data

How the results depend on the processing

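Of 41 calls of members, 31 stood at an adjusted p of 0.05 under every other tool, scaling, filter, block, length correction and left-out library, among them Txnrd1, Srxn1, Prdx1 and Prdx6 in all 6 treatment comparisons, and neither of the 2 genotype calls did. Stricter thresholds were not part of that count. A change of 2-fold in addition left 4 of 7 for PM in WT (not Txnrd1, Txn1 and Prdx2), 6 of 10 for OI and PM against vehicle in WT and 0 of 2 for genotype with OI and PM (3.02% and 5.38% of all genes higher and 0.588% lower), and a test against 1.5-fold left 6 and 0 in the last 2 (7.59% and 0.187%). Where given in brackets below, the percentages are the share of all tested genes called in the same fit. Fits on the compared groups alone called 8, 7 and 9 for PM, OI, and OI and PM against vehicle in Acod1-/- cells (25.6%, 24.3% and 38% of all genes higher), and 2, 0 and 0 for genotype with vehicle, PM, and OI and PM (10.3%, 0.818% and 0% lower). Of the 7 for OI, 6 were higher and 1 was lower. The length correction called 7 for OI in Acod1-/- cells, where 19% of all tested genes were higher and 24.8% lower, and 1, 1 and 3 for genotype, where 1.8%, 2.72% and 8.43% were lower. No filter gave 2 and 6 for genotype with PM and with OI and PM (1.3% and 4.54% lower), and a filter in all libraries gave 1 in the latter (3.63%). The causes were not tested.

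With 1 library left out, the number of members called ran from 5 to 8 for PM in each genotype, 4 to 10 and 4 to 7 for OI in WT and Acod1-/- cells, 8 to 10 and 6 to 9 for OI and PM against vehicle, and 0 to 1, 0 to 3 and 1 to 9 for genotype with vehicle, PM, and OI and PM. The share of all genes moved as well, from 6.42% to 22.9% and 7.06% to 19.6% higher for PM in WT and Acod1-/- cells, 14.1% to 31.5% and 8.51% to 19.9% for OI, 24.7% to 38.3% and 14.7% to 29.6% against vehicle, and 0.241% to 1.77%, 0.33% to 3.41% and 0.472% to 28.3% lower for genotype. The number of members called for the interactions ran from 0 to 0 with PM and 0 to 3 with OI (0% to 3.27% of all genes lower). Prdx5 under OI in WT changed sign, from 0.01 to -0.35 without WT OI and PM replicate 2, and was 0.30 without replicate 1. A lone library of a group is assumed to vary like the other groups.

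The deviations of same-numbered libraries were correlated above 0.1 in all 3 pairs of WT groups (r = 0.23, 0.24 and 0.73), among them those of the WT libraries with PM and with OI and PM that shared a shift with gene length, but in 0 of the 3 pairs of Acod1-/- groups. Over all groups 5 of 15 pairs were above 0.1 and r ran from -0.41 to 0.73, so the numbers were not taken to pair the libraries of the whole design. The replicate block left the counts at 7, 6, 5, 4, 10 and 7 for the treatment comparisons, in the order PM, OI, and OI and PM against vehicle, each in WT and then Acod1-/- cells (13.6%, 12.6%, 22.5%, 14.5%, 34% and 23.5% higher), and 0, 0 and 2 for genotype (0.873%, 1.22% and 4.86% lower), and changed no call of a member. The block with the length correction gave 7 for OI in Acod1-/- cells (19.3% higher, 25.3% lower) and 1, 1 and 4 for genotype (1.75%, 2.77% and 9.16% lower). A block that exchanged replicate numbers among Acod1-/- libraries with PM, chosen after seeing the data, gave 8, 7, 6, 5, 10 and 8 for the treatment comparisons (17.4%, 15.1%, 25.4%, 16.7%, 35.3% and 26.1% higher) and 0, 0 and 3 for genotype (1.1%, 1.86% and 9.62% lower). A block in the WT libraries alone, also chosen after seeing the data, gave 8, 8, 6, 6, 10 and 9 (22.2%, 19.3%, 29%, 20%, 37.2% and 29.4% higher) and 1, 1 and 3 (1.86%, 3.44% and 16.9% lower). Of its 6 for OI in Acod1-/- cells, 5 were higher and 1, Prdx5, was lower.

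Total count scaling in place of TMM moved the median of all genes by -0.22 for OI and PM against vehicle in WT, -0.15 in Acod1-/- cells and -0.13 for OI in WT, and 7, 6 and 4 members were called there (20.3%, 14.5% and 12.6% higher). Of genes simulated with a rise of 1.5-fold for PM against vehicle in WT, 68% were recovered, and smaller changes were not simulated. The simulation left out the shifts between replicates that the data show.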

Other observations

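Enzymes that act on peroxide or superoxide outside the peroxiredoxin family did not move together with OI. Cat and Sod1 rose in each genotype, as Prdx1 did, while Sod2 and Gpx1 fell. Sod2, the mitochondrial superoxide dismutase, rose with PM by 2.16 on the log2 scale in WT (SE 0.15, edgeR adjusted p = 6.69e-06) and by 2.36 in Acod1-/- cells, and fell by 1.13 and by 1.39 with OI. Cat, catalase, rose with PM by 0.92 in WT and 1.02 in Acod1-/- cells, and again with OI, by 0.93 in WT, and in Acod1-/- cells too. Gpx1, the cytosolic glutathione peroxidase, fell by 1.03 with OI in WT and by 0.84 in Acod1-/- cells, while Sod1 rose by 0.88 and 0.69. Of 5 tested genes of this list, 3 rose with PM in each genotype, where 12.6% of all tested genes rose in WT and 12% in Acod1-/- cells. With OI 2 rose and 2 fell in each genotype, where 21.3% of all tested genes rose and 22.6% fell in WT, and 13.9% and 20.6% in Acod1-/- cells.

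Of 6 genes for selenoprotein synthesis, on which the thioredoxin reductases depend, Sephs2, which makes the selenium donor, rose with PM by 0.56 in WT (adjusted p = 0.00209) and 0.66 in Acod1-/- cells, and with OI by 0.37 and 0.31. Sepsecs fell by 0.37 with PM in WT (adjusted p = 0.0258). With OI in WT, Pstk (0.61) and Trnau1ap (0.40, adjusted p = 0.0496) rose as well, which makes 3 of 6 where 21.3% of all tested genes rose. With OI in Acod1-/- cells 1 of 6 rose, where 13.9% of all tested genes did, and with PM 1 of 6 rose in each genotype, where 12.6% and 12% did.

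Over the 12 libraries, the genes whose pattern was most like that of a member, by Pearson's r of log2 CPM among 9558 genes, were Akr1b8, Gss and Slc22a4 for Prdx1, Riok3, Mmp19 and Chpf2 for Srxn1, and Dtnbp1, Selenos and Cnppd1 for Txn1. The highest r of each was 0.999, 0.997 and 0.997, over libraries of 6 groups that share treatment.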
